A study of Mus musculus with 12 samples.

Results

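Hepatic expression of 5 genes that make taurine, carry it into cells and attach it to bile acids was examined in germ-free (GF) and conventionalized (CV) mice: Cdo1, Csad, Slc6a6, Slc27a5 and Baat. The genes were chosen by function, as the rows whose symbol matched one of these names, and each was found once among 41128 genes in the table. They were selected with earlier results of the CV against GF comparison in these data known, so that comparison is described here without a test. The study sequenced liver RNA from 12 C57BL/6 mice that had been kept in sterile isolators until weaning at 21 days. GF mice stayed in the isolators, whereas CV mice were moved to cages with used bedding from the animal facility for 3 weeks, and both were killed at 6 weeks of age. Each condition held 3 males and 3 females by label. The labels number the mice within each group and give no litter, cage or sequencing batch, so cage and condition cannot be told apart.

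Taurine is made from cysteine. Cysteine dioxygenase (Cdo1) oxidizes cysteine to cysteine sulfinate, cysteine sulfinate decarboxylase (Csad) converts this to hypotaurine, and hypotaurine is then oxidized to taurine. The transporter Slc6a6 brings taurine into cells together with sodium and chloride. In hepatocytes the bile acid-CoA ligase Slc27a5 activates bile acids with coenzyme A, and Baat transfers the activated bile acid to an amino acid, which in mice is mostly taurine. The conjugates are secreted into bile, and gut bacteria can remove the taurine again.

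Csad is shown by sequence because it was the only 1 of the 5 genes with an entry among the promoter sequences used. It lies on chromosome 15 (GRCm38, 102176999 to 102204724, minus strand), and RefSeq (GRCm38.p6) lists a pair of start sites for it. The stretches of the 250 bases before each start that lie outside annotated exons are printed 5′ to 3′ on the minus strand. The first is chr15:102205087-102205228, which lies 176 to 35 bases before the far start and inside an intron of the neighbouring Zfp740. The second is chr15:102189059-102189293, which lies 250 to 16 bases before the near start. Capitals mark the matches to 9 short words that were searched for on both strands.
Csad far start: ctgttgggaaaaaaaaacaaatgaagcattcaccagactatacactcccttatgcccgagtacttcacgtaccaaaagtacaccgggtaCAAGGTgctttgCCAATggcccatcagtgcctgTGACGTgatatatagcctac
Csad near start: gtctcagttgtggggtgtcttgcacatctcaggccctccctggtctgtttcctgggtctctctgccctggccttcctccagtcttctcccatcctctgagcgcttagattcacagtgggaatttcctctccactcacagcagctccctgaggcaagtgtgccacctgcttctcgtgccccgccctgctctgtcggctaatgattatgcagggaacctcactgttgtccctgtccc

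In the far window, the word CAAGGT was found 87 bases before the start, CCAAT was found at 75 bases and TGACGT at 54 bases. Over 32851 promoter windows of the same length, these words occurred in 10.9%, 33.8% and 6.47%. The other words searched were AGGTCA (14.0% of windows), TCAAGG (12.5%), GTTAAT (6.43%), CAAAGT (12.6%), CACGTG (6.02%) and TATAAA (12.4%), and none of the 9 words was found before the near start. The word TCAAGG shares its last 5 letters with the first 5 of CAAGGT, so both can mark the same place. The counts are per gene and do not tell which start was used.

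The libraries held 5993619 to 15290835 reads assigned to genes. GF and CV libraries differed in make-up: the 2 mitochondrial ribosomal RNAs took 9.36 to 16.4% of reads in GF and 1.39 to 6.32% in CV, with the CV males 2 and 3 at 5.89 and 6.32%. A set of 7 loci that includes these RNAs, called abundant loci here, took 41.8 to 69.4% in GF and 5.39 to 21.9% in CV. They were chosen by name or as loci without an established gene symbol that took at least 1% of reads in a library. Genes with an established symbol, such as Alb, were otherwise left out of the set whatever their level. The library labelled CV male 3 held 0 reads from the Y-linked genes examined. Its Xist value was 2382, against at most 21.3 in the other libraries labelled male. Both go against its label. Values without it are given below for the 5 genes and for part of the results on other genes. The hepatocyte markers Alb, Ttr, Apoa1, Apoa2, Fgb and Tat were all detected, with a summed value of 112320 to 574521 in GF and 481819 to 688648 in CV. Values below are the deposited reads divided by a size factor per library, called normalized reads.

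Cdo1 carries out the first step from cysteine on the taurine route (chromosome 18, 46713193 to 46728395, minus strand). GF males had 3644, 5772 and 4035 normalized reads and GF females had 3140, 4410 and 2038. CV males had 12207, 7730 and 12428 and CV females had 12384, 12167 and 10948. Every CV library was above every GF library. The mean was 4484 ± 1132 in GF males, 3196 ± 1187 in GF females, 10788 ± 2651 in CV males and 11833 ± 774 in CV females (SD, n = 3 each). On the log2(value + 1) scale the CV minus GF difference was 1.61 ± 0.24 (SE), or 3.05-fold, over both sexes. It was 1.26 ± 0.34 in males and 1.96 ± 0.34 in females, and the difference between these was not tested. Without the library labelled CV male 3, the male difference was 1.14. In bulk liver, fewer cells of a type and less RNA per cell cannot be told apart.

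Csad, which acts on the product of Cdo1, had the largest difference of the 5 genes. Its normalized reads were 323, 250 and 332 in GF males and 198, 271 and 167 in GF females. They were 2113, 1360 and 1080 in CV males and 1834, 1937 and 2817 in CV females. The lowest CV library, labelled CV male 3, was above the highest GF library. Group means were 302 ± 44.8 in GF males, 212 ± 53.7 in GF females, 1518 ± 534 in CV males and 2196 ± 540 in CV females (SD, n = 3 each). The CV minus GF difference was 2.83 ± 0.20 on the log2 scale (SE), or 7.09-fold. It was 2.28 ± 0.29 in males, or 4.86-fold, and 3.37 ± 0.29 in females, or 10.3-fold, and this difference between the sexes was not tested. Without the library labelled CV male 3, the male difference was 2.50. The zinc finger gene Zfp740 on the opposite strand shares 278 exon bases with Csad, 7.26% of Csad's exon length. Its level was 140 ± 33.6 in GF and 94.1 ± 12.8 in CV (SD, n = 6 each), opposite in direction to Csad under the deposited size factors. The direction of Zfp740 under other scalings is not given here.

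Slc6a6, the taurine transporter (chromosome 6, 91684053 to 91759066, plus strand), had overlapping values in GF and CV. GF males had 421, 475 and 353 normalized reads and GF females had 319, 436 and 358. CV males had 413, 354 and 493 and CV females had 592, 400 and 555. The CV minus GF difference was 0.24 ± 0.17 on the log2 scale (SE) over both sexes, 0.01 ± 0.24 in males and 0.47 ± 0.24 in females. In males it was -0.11 without the library labelled CV male 3. A neighbouring locus on the opposite strand (Gm44981), not analysed here, shares 117 exon bases with Slc6a6, 1.38% of its exon length.

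Slc27a5, the ligase that activates bile acids (chromosome 7, 12988346 to 12998192, minus strand), was higher in every CV library than in every GF library. GF males had 1861, 2406 and 2256 normalized reads and GF females had 1167, 2104 and 1484. CV males had 8719, 3603 and 4001 and CV females had 6707, 5167 and 5088. CV male 1 stood well above the other CV males. Group means were 2174 ± 282 in GF males, 1585 ± 477 in GF females, 5441 ± 2846 in CV males and 5654 ± 913 in CV females (SD, n = 3 each). The CV minus GF difference was 1.54 ± 0.24 on the log2 scale (SE), or 2.91-fold, with 1.21 ± 0.34 in males and 1.87 ± 0.34 in females. In males it was 0.81 without CV male 1 and 1.37 without the library labelled CV male 3.

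Baat, the enzyme that joins the activated bile acid to taurine (chromosome 4, 49489422 to 49506557, minus strand), had values that overlapped between GF and CV. GF males had 1100, 991 and 917 normalized reads and GF females had 580, 846 and 730. CV males had 1736, 925 and 888 and CV females had 1051, 943 and 824. CV male 1 was again the highest library, and the other CV males lay within or below the range of the GF males. The CV minus GF difference was 0.28 ± 0.19 on the log2 scale (SE) over both sexes, 0.17 ± 0.27 in males and 0.40 ± 0.27 in females. In males it was -0.14 without CV male 1 and 0.34 without the library labelled CV male 3.

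**Figure D1:**
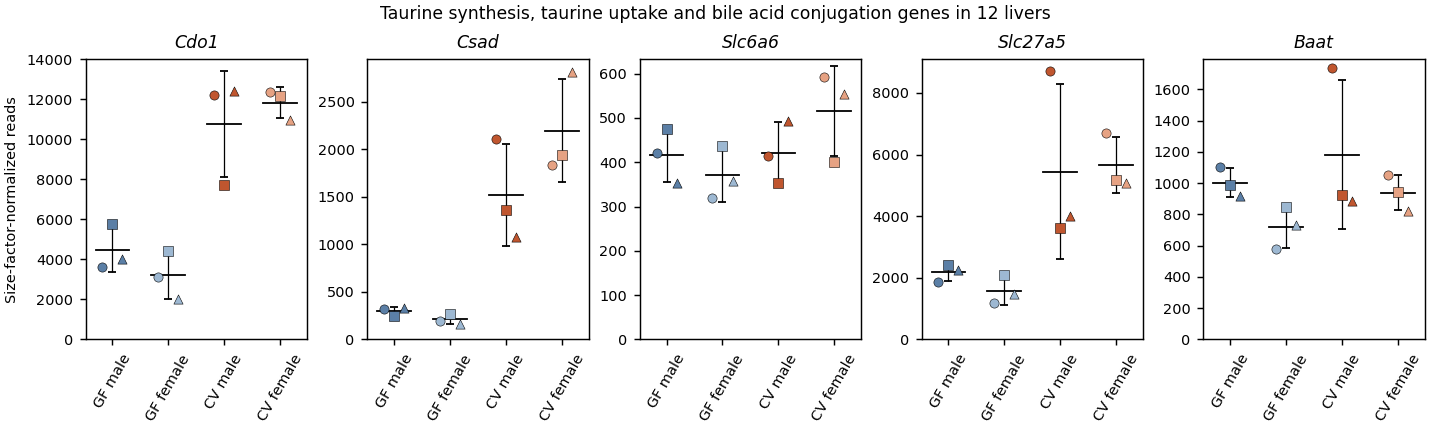
Normalized reads (vertical axes, each from 0) of the 5 genes in the 12 livers by labelled group, with circles, squares and triangles for replicates 1, 2 and 3 and bars for the mean ± SD (n = 3). CV libraries lie above all GF libraries for Cdo1, Csad and Slc27a5 and overlap them for Slc6a6 and Baat, and the highest Baat point is CV male 1 at 1736.

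In 3 of the 5 genes (Cdo1, Csad and Slc27a5), all CV libraries were above the GF libraries of their labelled sex. The same held for 18.6% of the 11782 genes with a mean of at least 10 normalized reads. Nothing is read from this count, since the genes were picked with the comparison known. The median difference of all 11782 genes was 0.07 on the log2 scale over both sexes, 0.06 in males and 0.08 in females.

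Scaling set the level of every difference. Scaled to all reads, the CV minus GF differences on the log2 scale were 3.38 for Csad, 2.17 for Cdo1, 2.10 for Slc27a5, 0.84 for Baat and 0.80 for Slc6a6, with the median of all genes at 0.64. Scaled to reads outside the 7 abundant loci, they were 2.37 for Csad, 1.15 for Cdo1, 1.08 for Slc27a5, -0.18 for Baat and -0.22 for Slc6a6, with the median at -0.40. The direction for Baat and Slc6a6 thus depended on the scaling, whereas Csad, Cdo1 and Slc27a5 were higher in CV under each of the 4 scalings tried. With the mitochondrial ribosomal RNA share as a covariate, the difference was 2.22 for Csad, 1.77 for Cdo1, 0.003 for Slc27a5, -0.78 for Baat and 0.50 for Slc6a6. The share did not overlap between the conditions, so this RNA and the condition cannot be told apart.

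**Figure D2:**
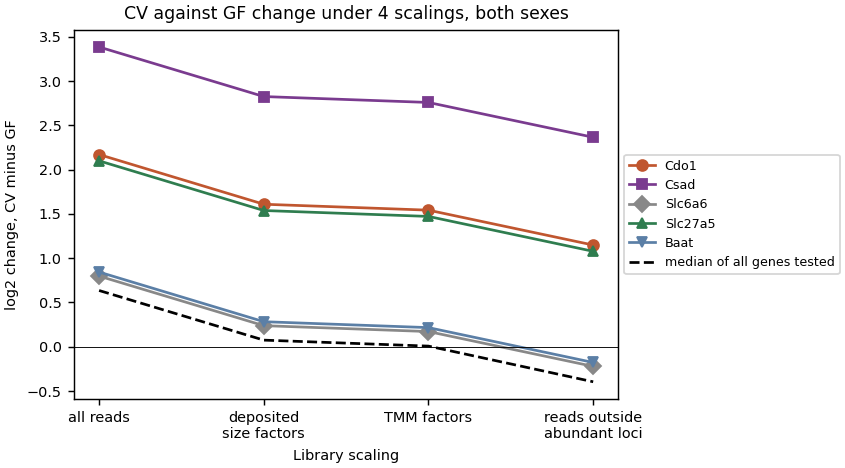
CV minus GF difference on the log2 scale over both sexes (vertical axis) for the 5 genes under 4 library scalings (horizontal axis), with the median of all genes tested as a dashed line. All lines move together, from 3.38 to 2.37 for Csad, and Baat and Slc6a6 cross 0 at the right.

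Ratios between genes within a library do not depend on scaling. Slc27a5 had 2.19 reads per Baat read in GF (1.69 to 2.49) and 5.24 in CV (3.89 to 6.38). The ligase and the transferase, which act one after the other, thus stood in a different proportion in the conditions with no overlap between libraries. Csad had 0.300 reads per Baat read in GF (0.228 to 0.362) and 1.85 in CV (1.22 to 3.42). Csad per Slc6a6 read was 0.657 in GF (0.465 to 0.940) and 4.03 in CV (2.19 to 5.11), also without overlap. The ratios restate CV against GF differences of genes picked with that comparison known. Ratios that involve genes other than the 5 were not examined, so nothing is read from the lack of overlap.

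Within the synthesis route, Cdo1 had 15.1 reads per Csad read in GF (11.3 to 23.1) and 6.65 in CV (3.89 to 11.5), with slight overlap. Csad per Slc27a5 read was 0.139 in GF (0.104 to 0.174) and 0.349 in CV (0.242 to 0.554). By contrast, Cdo1 per Slc27a5 read was 2.05 in GF and 2.17 in CV, and Slc6a6 per Baat read was 0.467 in GF and 0.473 in CV, with overlapping libraries in both.

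**Figure D3:**
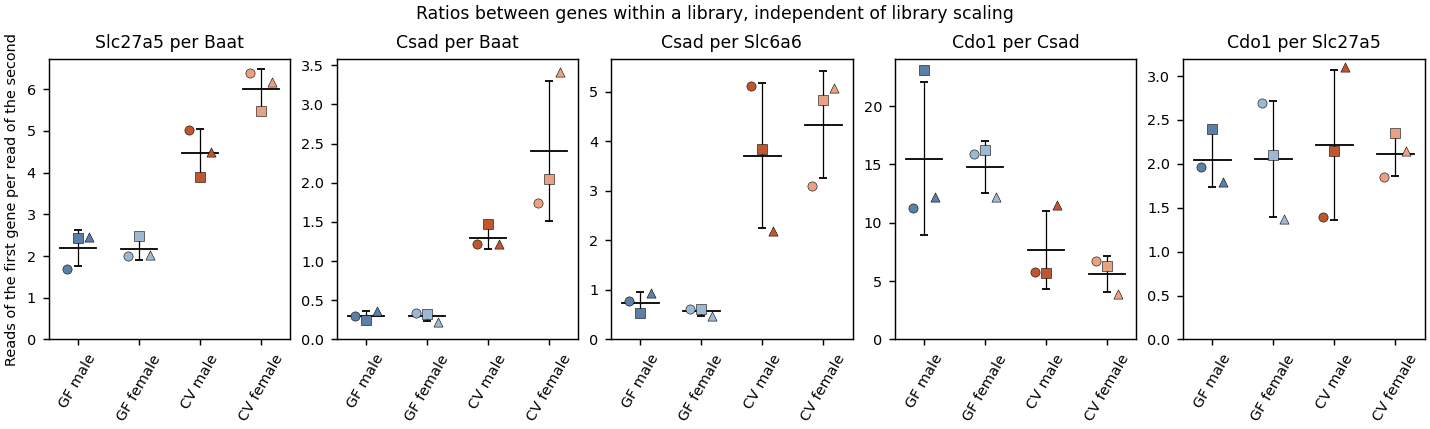
Reads of the first gene per read of the second (vertical axes, each from 0) within each of the 12 libraries by labelled group, with circles, squares and triangles for replicates 1, 2 and 3 and bars for the mean ± SD (n = 3). Slc27a5 per Baat, Csad per Baat and Csad per Slc6a6 do not overlap between GF and CV, and Cdo1 per Slc27a5 lies near 2.05 in GF and 2.17 in CV.

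Per kilobase of annotated exon, Cdo1 was the most abundant of the 5 genes, at a mean of 2336 normalized reads per kilobase in GF and 6880 in CV. Slc27a5 followed at 771 and 2275, and Baat at 443 and 547. Csad was at 67.0 in GF and 485 in CV, and Slc6a6 was at 46.5 and 55.3. The order Cdo1, Slc27a5, Baat, Csad, Slc6a6 held in 10 of 12 libraries. In CV females 2 and 3, Csad was above Baat, so the order of these neighbours was not the same in all libraries.

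Males and females were compared because the choice of genes did not use that contrast. With limma on log2(value + 1), 0 of the 5 genes passed an adjusted p of 0.05 over both conditions, against 1.16% of all genes tested. In GF the count was 0 against 1.63%, and in CV it was 0 against 0.0594%. At an unadjusted p under 0.05 the count was also 0 of 5 in each comparison, against 11.0%, 17.6% and 5.10% of all genes tested, and edgeR, DESeq2 and limma voom called 0 as well. Over both conditions the male minus female difference of Baat was 0.38 (95% interval -0.03 to 0.79, limma adjusted p = 0.487). For Csad it was 0.53 in GF (-0.08 to 1.13, limma adjusted p = 0.346) and -0.56 in CV (-1.17 to 0.04, limma adjusted p = 0.928). Without the library labelled CV male 3, the Csad difference in CV was -0.35. The differences in CV without it were -0.28 for Cdo1, 0.44 for Baat and -0.41 for Slc6a6, against -0.16, 0.27 and -0.29 with it.

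In GF the intervals for Cdo1 (-0.18 to 1.24), Slc27a5 (-0.22 to 1.20) and Baat (-0.08 to 1.07) were wide, so a difference of 1 on the log2 scale lay within each of them with 3 mice a group. For Slc6a6 the difference over both conditions was -0.06 (-0.42 to 0.30). No gene was called between the sexes without the library labelled CV male 3.

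**Figure D4:**
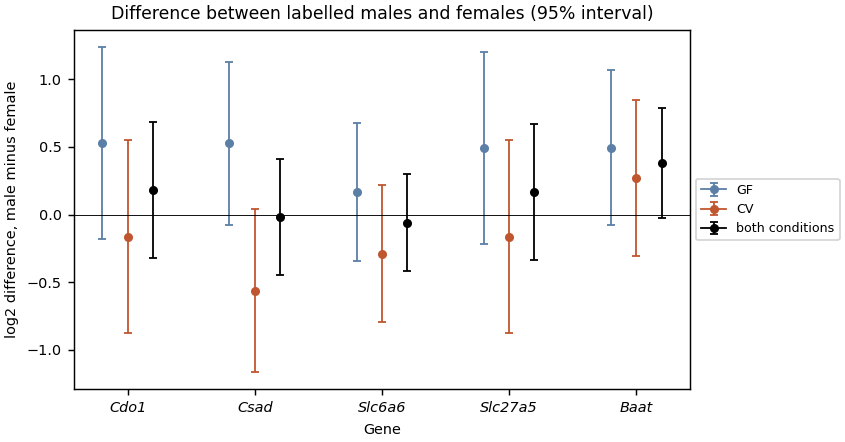
Male minus female difference on the log2 scale (vertical axis) with 95% intervals for the 5 genes in GF, in CV and over both conditions. All intervals include 0, and Csad lies at 0.53 in GF and -0.56 in CV, which include the library labelled CV male 3 (-0.35 in CV without it).

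Other genes of the pathway were taken from 10 lists with 63 genes, of which 57 passed the filter of a mean of at least 10 normalized reads. In CV against GF over both sexes, 36 were higher, 7 were lower and 14 did not pass a limma adjusted p of 0.05. Among all genes tested, 32.3% were higher and 28.7% lower. The median difference of the listed genes was 0.75 on the log2 scale, against 0.07 over all genes. The lists were chosen with earlier results of these data known, so these counts and medians are a description only. Nothing is read from their distance to the values over all genes. The counts of listed genes were 47 higher and 3 lower scaled to all reads, and 21 and 8 scaled to reads outside abundant loci. Without the library labelled CV male 3 they were 38 and 6. With the mitochondrial ribosomal RNA share as covariate they were 0 and 0. This share did not overlap between the conditions. The count over all genes with this covariate is not given here, so nothing is read from the loss of these calls. Scaled to all reads, 5954 of all 11746 genes tested were higher and 1565 lower. Outside abundant loci, 2142 of all 11925 genes tested were higher and 4984 lower. Tested within each labelled sex, 17 listed genes were higher and 4 lower in males, and 36 were higher and 4 lower in females. Of all 11782 genes, 1660 were higher and 1814 lower in males, and 3512 were higher and 3060 lower in females. CV against GF results of listed genes in labelled males, here and below, include the library labelled CV male 3. They are not given without it. The difference between the sexes' changes passed an adjusted p of 0.05 for 0 of the 57 genes by limma. The share of all genes that passed is not given here, so nothing is read from this 0. At an unadjusted limma p under 0.05 the share of all 11782 genes was 11.7%.

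All 5 genes of cysteine supply rose in CV with a median of 0.69, among them Mat1a (1.01 ± 0.25, SE), which makes the methyl donor S-adenosylmethionine, and Cth (0.93 ± 0.27), which releases cysteine from cystathionine. Within each sex, 0 of the 5 passed in males and 5 in females: Cth was at 0.26 in males and rose by 1.60 in females. Of all 11782 genes tested, 1660 were higher in CV in males and 3512 in females. Scaled to reads outside abundant loci, 1 of the 5 (Mat1a) rose and the median was 0.23. With the deposited size factors, the call of Bhmt was kept on leaving out 3 of the 12 libraries in turn and lost for the other 9. Of 9 genes for other fates of cysteine, 7 rose and 0 fell, with a median of 1.27, and 7 rose also when scaled to reads outside abundant loci. Sqor, which oxidizes sulfide in mitochondria, rose by 2.11 ± 0.26, and sulfite oxidase Suox rose by 1.80 ± 0.22. Gclm, the modifier subunit of the enzyme that starts glutathione synthesis, rose by 1.27 ± 0.22, and its catalytic partner Gclc was at 0.35 ± 0.21 and did not pass. These genes compete with Cdo1 for cysteine or handle its sulfur.

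Hypotaurine can also come from cysteamine, which the pantetheinases release and Ado oxidizes. Vnn1 rose by 2.69 ± 0.22, Vnn3 by 1.91 ± 0.19 and Ado by 0.70 ± 0.20. Fmo1, which can oxidize hypotaurine to taurine, was at 0.43 ± 0.19 (limma adjusted p = 0.058). Slc6a13, a transporter that also carries taurine, rose by 0.74 ± 0.21, whereas the amino acid transporter Slc36a1 fell by 0.59 ± 0.21. Of the 7 genes tested in this list, 4 rose and 1 fell, with a median of 0.70. Scaled to reads outside abundant loci, the rises of Ado and Slc6a13 did not pass, and scaled to all reads the fall of Slc36a1 did not. Without GF female 3, CV male 1 or CV female 2, Slc36a1 did not pass either. Gadl1, a relative of Csad, was listed at 0 in all libraries.

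All 6 genes of the side chain steps before amidation rose, with a median of 1.33, and 5 rose when scaled to reads outside abundant loci, where Acox2 did not pass. Within each sex, 3 of the 6 rose in males and 6 in females, against 1660 and 3512 of all 11782 genes tested. They include Slc27a2 (1.46 ± 0.24), which activates bile acid precursors, the racemase Amacr (1.46 ± 0.20), the peroxisomal enzymes Hsd17b4 (1.20 ± 0.21) and Acox2 (0.75 ± 0.25), the thiolase gene Scp2 (1.33 ± 0.29) and the peroxisomal import receptor Pex5 (1.33 ± 0.23).

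Among the relatives of Baat, 5 of 6 tested rose and 1 fell, with a median of 1.33. The acyl-CoA thioesterases Acot1 and Acot3 rose by 2.49 ± 0.24 and 2.19 ± 0.43, and Acnat2 rose by 1.36 ± 0.49 while its neighbour Acnat1 fell by 1.38 ± 0.20. These genes are similar in sequence and share a family, so reads may be split between them. Scaled to reads outside abundant loci, 3 rose and 1 fell, and Acnat2 did not pass. With the deposited size factors, the call of Acnat2 was lost without GF male 2. Of 4 relatives of Slc27a5 tested, 2 rose, 1 fell and 1 did not pass, with a median of 0.73, and Slc27a3 fell by 3.06 ± 0.55, a call that was lost without GF male 3 or GF female 1. Scaled to reads outside abundant loci, 1 of the 4 rose. Of 2 relatives of Csad tested, the histidine decarboxylase Hdc fell by 1.93 ± 0.24 and Ddc was at 0.17 ± 0.28 and did not pass, with -0.64 in males and 0.97 in females, neither of which passed. Of 4 relatives of Slc6a6, 3 rose, with a median of 0.80, and 1 rose when scaled to reads outside abundant loci.

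Of 7 genes for bile acid synthesis and carriers, 3 rose, 1 fell and 3 did not pass, with a median of 0.58. Cyp8b1, the sterol hydroxylase that directs synthesis to cholic acid, rose by 2.37 ± 0.40, and the bile acid uptake carrier Slc10a1 rose by 1.86 ± 0.22. The export pump Abcb11 fell by 0.55 ± 0.21, but scaled to all reads it was at 0.01 and did not pass. Its call was also lost without GF male 1, GF female 1, GF female 3, CV male 2, CV female 2, CV female 3 or the library labelled CV male 3. Cyp7a1, the rate-limiting enzyme of bile acid synthesis, was at 0.17 ± 0.26 over both sexes and did not pass, whereas it passed at 0.73 when scaled to all reads and was at -0.28 outside abundant loci. In labelled males alone it rose by 1.18 ± 0.36 (limma adjusted p = 0.023), and in females it was at -0.83 ± 0.36 (limma adjusted p = 0.060). The difference between these changes was 2.02 ± 0.51 and did not pass (limma adjusted p = 0.417). Both the male value and this difference include the library labelled CV male 3. Of 9 regulators, 3 rose, 2 fell and 4 did not pass, with a median of 0.30. The bile acid receptor Nr1h4 fell by 0.49 ± 0.17 and Nr5a2 fell by 1.02 ± 0.21, whereas the FGF co-receptor Klb rose by 0.98 ± 0.28. Regulator calls in both directions changed with library scaling. With all reads as the scale, 6 regulators rose and 0 fell, with Nr1h4 at 0.07 and Nr5a2 at -0.46. Scaled to reads outside abundant loci, 0 rose and 3 fell, with Klb at 0.52. The fall of Nr1h4 was also lost without GF male 1 or CV female 1.

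**Figure D5:**
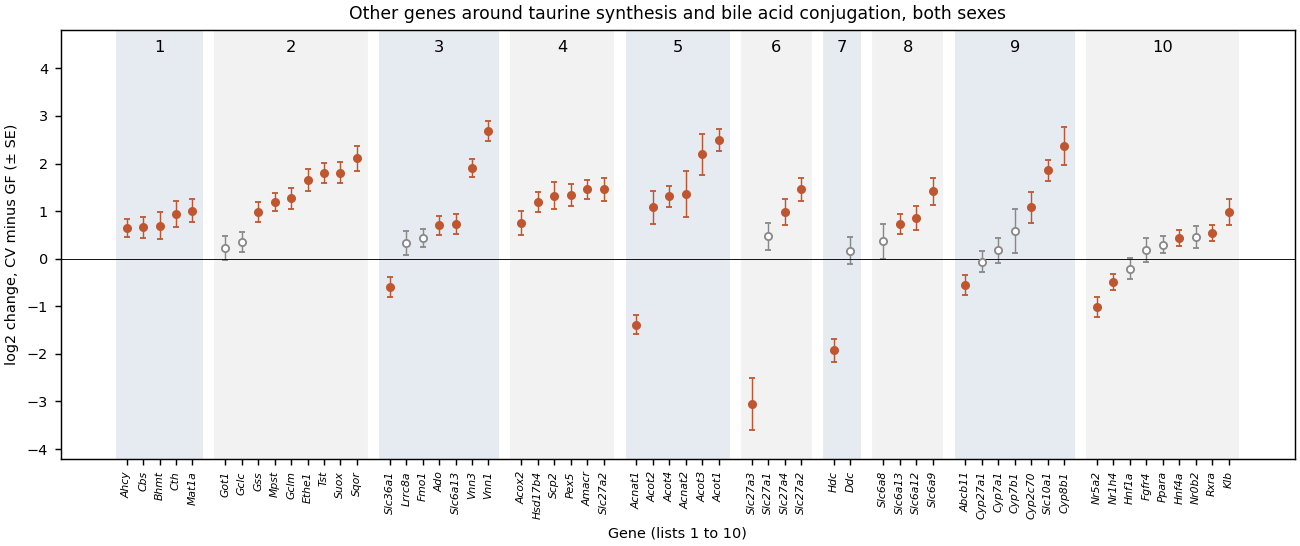
CV minus GF difference on the log2 scale ± SE over both sexes (vertical axis) for the tested genes of 10 lists, numbered at the top: 1 cysteine supply, 2 other fates of cysteine, 3 other taurine and hypotaurine genes, 4 side chain steps, 5 Baat family, 6 Slc27 family, 7 Csad family, 8 Slc6 family, 9 bile acid synthesis and carriers, 10 regulators. Filled points passed a limma adjusted p of 0.05 and open points did not, and lists 1 and 4 hold filled points above 0 only.

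The genes whose pattern over the 12 libraries was most like that of each gene were found by Pearson's r of log2(value + 1), as a description that includes the shared CV and GF split and the shared libraries. For Csad they included Ctsh (r = 0.992) and Ppcs (0.989). For Cdo1 they were H2-T22 (0.994), Ciao1 (0.991) and Apool (0.989), and for Slc27a5 they were Aplp2 (0.994), Sephs2 (0.991) and Galm (0.990). For these genes the likeness was common: r was at least 0.9 for 1040, 1324 and 1229 of 11112 genes, respectively. Baat was most like Cdh2 (0.955), Cyp2u1 (0.938) and Plpbp (0.924), with 4 genes at 0.9 or above. Slc6a6 was most like Btg1 (0.841), Pigr (0.832) and Fem1b (0.829), with 0 genes at that level.

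Markers of other tissues and liver cells were read beside these values. Of 5 kidney markers 1 was detected, with a summed value of 0 in GF and at most 1.04 in CV, and Umod, Slc12a1, Slc34a1 and Kap were at 0 in all libraries. Exocrine pancreas markers summed to 34.7 to 291 in GF and 167 to 355 in CV, nearly all of it Cela1, and group means of Cpa1, Prss2, Pnlip and Cel were at most 1.79. Adipose markers (4 of 5, Lep at 0) summed to 72.5 to 207 and 49.4 to 215, and skeletal muscle markers (4 of 5, Ckm at 0) to 2.69 to 11.5 and 4.68 to 21.8. All 5 markers of each other liver cell type were detected. Bile duct markers summed to 453 to 1059 in GF and 527 to 1616 in CV, Kupffer cell markers to 744 to 1423 and 857 to 1970, and stellate cell markers to 1198 to 2359 and 1293 to 2514. Endothelial markers summed to 874 to 2229 in GF and 299 to 1011 in CV, mostly through Stab2, with means of 763 in GF males, 1090 in GF females, 261 in CV males and 238 in CV females. Lyve1 was at 74.2 and 81.3 in GF males and females and at 99.0 and 83.1 in CV. Kdr was at 181 in GF males and 222 in CV males, but at 302 in GF females and 173 in CV females. Pecam1 was at 74.3 and 117 in GF males and females and at 75.8 and 71.7 in CV. Cdh5 was at 85.0 and 143 in GF males and females and at 80.5 and 70.8 in CV. The red blood cell genes summed to 2777 to 32885 in GF and 916 to 3159 in CV. The part of these cells in the differences was not tested.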

How the data were processed

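Poly(A)-selected stranded libraries were made from snap-frozen liver. Per the submitters' processing notes, the authors used HTSeq 0.6.1p1, DESeq2 and GRCm38. The aligner, annotation and strand setting are not given in the sources used here. The deposited signal is read counts divided by 1 size factor per library: 100% of values came out whole within 0.01 reads, and the recovered reads (5993619 to 15290835 per library) were used for edgeR and DESeq2 as alternatives. Of the IDs, 97.9% matched GENCODE M21, which gave positions and exon lengths. The main test was limma 3.58.1 in R 4.3.3 on log2(value + 1) for 11782 genes with a mean of at least 10, with a mean per condition and sex, a variance trend and Benjamini-Hochberg adjustment at 0.05. Alternatives used edgeR 4.0.16, DESeq2 1.42.0, limma voom, other scalings, filters and pseudocounts, covariates and leaving out each library. The script was tested on simulated data. The members, gene lists and tests were chosen with earlier results of these data known. All members, any gene of the lists and the 3 genes most like each member could be named, and 1 of the latter is not reported here. P-values measure the spread between these mice.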

Additional observations from a re-analysis of the deposited data

Results flagged for a closer look

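In groups of 6 libraries per condition, 1 library stood apart from the others for each of a pair of genes, out of 10 gene and condition groups screened, and chance flags about 1 in 20 such groups. The lowest Cdo1 value in CV was 7730 normalized reads in CV male 2, far below the next lowest. The highest Baat value in CV was 1736 normalized reads in CV male 1, far above the next highest. CV male 1 had the lowest mitochondrial ribosomal RNA share of all libraries (1.39%) and CV male 2 had one of the 2 highest in CV (5.89%). The part of this share was not tested.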

How the results depend on the processing

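Csad and Cdo1 were higher in CV under each alternative tried, over both sexes and in each, and no gene of the 5 was called between the sexes under any. The listed pathway genes, 36 higher and 7 lower in CV, numbered 21 higher when scaled to reads outside abundant loci and 3 lower when scaled to all reads. They numbered 4 lower at a threshold of 0.01, and 0 higher and 0 lower with the mitochondrial ribosomal RNA share as covariate. The count over all genes with this covariate is not given here, and the cause of these changes was not tested. Whether the numbers of the replicates pair the mice was not settled: 5 of 18 same-numbered pairs had a correlation above 0.1 (-0.23 to 0.40). Between males and females of a condition, the same-numbered correlations were 0.059, 0.403 and 0.068 in GF. In CV they were 0.193, 0.118 and 0.173. Different-numbered libraries were not compared, so these values cannot decide it. With the replicate block, 36 were higher and 7 lower, and the block changed no other call.

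Several small differences turned direction (log2 scale). Scaled to all reads, male minus female over both conditions was 0.076 for Csad and 0.034 for Slc6a6. Scaled outside abundant loci, CV minus GF over both sexes, in males and in females was -0.177, -0.131 and -0.224 for Baat and -0.221, -0.290 and -0.153 for Slc6a6, and male minus female in GF was -0.150 for Slc6a6. CV minus GF of Slc6a6 in males was -0.047 with TMM, -0.046 with edgeR, -0.013 with DESeq2 and -0.044 with voom. With the covariate, CV minus GF of Baat was -0.783, -0.469 in males and -1.10 in females, and that of Slc27a5 in females was -0.285. With it, male minus female in GF was -0.041 for Baat and -0.280 for Slc27a5, and in CV 0.297 for Slc27a5. With the length and GC trend removed, CV minus GF of Baat was -0.081, -0.090 in males and -0.072 in females.

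Leaving out 1 library at a time gave ranges that cross 0. Male minus female over both conditions ranged from -0.152 to 0.090 for Csad, from -0.147 to 0.000458 for Slc6a6 and from -0.036 to 0.283 for Slc27a5. In CV it ranged from -0.283 to 0.060 for Cdo1, from -0.044 to 0.439 for Baat and from -0.562 to 0.075 for Slc27a5. CV minus GF in males ranged from -0.142 to 0.342 for Baat and from -0.112 to 0.128 for Slc6a6. With 3 mice a group and 87 to 4679 Csad reads per library, the spread between mice sets the precision.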

Other observations

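Of the 57 listed pathway genes tested, 6 differed between males and females over both conditions by limma at an adjusted p of 0.05, against 1.16% of all genes tested. Leaving out CV male 3, whose label is in doubt, gave 9 genes, against 1.72% of all genes, and the 6 were among them. Cyp7b1, an oxysterol hydroxylase of bile acid synthesis, was higher in males by 3.46 on the log2 scale, and Bhmt and Ethe1 were higher in males by 1.34 and 1.07. The Baat relatives Acnat2, Acot3 and Acot4 were lower in males, with differences of -2.77, -2.68 and -1.31. Without that library the differences were 4.01 for Cyp7b1, 1.55 for Bhmt, 1.17 for Ethe1, -3.30 for Acnat2, -3.14 for Acot3 and -1.48 for Acot4. On leaving out each of the 12 libraries in turn, Bhmt passed 5 times and Ethe1 4 times, whereas the other 4 genes passed each time. Cdo1, Csad, Slc6a6, Slc27a5 and Baat together took 0.0415 to 0.0948% of all reads in GF and 0.193 to 0.351% in CV.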
